A study of Mus musculus with 6 samples.

Results

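Of 177443 autosomal regions of the mouse genome with methylation calls in all 6 libraries of colon epithelium, 542 (0.305%) set both libraries from mice given azoxymethane, dextran sulfate sodium and curcumin apart from the other 4 libraries by at least 8 percentage points. In 278 of them (0.157%) both curcumin libraries lay above the highest of the 4 AOM/DSS and control libraries, and in 264 (0.149%) both lay below the lowest. The level of a region is the percentage of its methylation calls that were methylated, and the members were chosen by these levels in all 6 libraries, so their distances are a description and carry no test. The same rule was applied to each of the other 14 ways to take 2 of the 6 libraries, and the curcumin count fell within their range in both directions.

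The tissue was colon epithelium scraped from C57BL/6 mice, an inbred laboratory strain, at 18 weeks of age. Mice of the first group received azoxymethane (AOM), a colon carcinogen, dextran sulfate sodium (DSS), a polymer that inflames the colon, and curcumin, the yellow polyphenol of turmeric. The AOM/DSS group received the carcinogen and the polymer alone, and the control group is labelled with neither. Each of the 3 groups had 2 libraries, and nothing in the labels says that replicates came from separate mice. Before scraping, the proximal part of the colon and tumors of its right portion were taken away, per the labels' protocol, so the levels are those of the remaining epithelium with whatever other cells the scraping carried. Doses and schedules were not given in the sources used here. Markers of cell types could not be read, because the regions could not be tied to genes.

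DNA methylation in mammals sits mainly on the cytosine of CpG dinucleotides, where DNMT enzymes place it and TET enzymes start its removal. CpG-rich islands at many gene starts are usually unmethylated, most of the remaining CpGs are methylated, and regions of intermediate level include enhancers, island edges and imprinted regions where the parental copies differ. AOM with DSS is a common mouse model of cancer in the inflamed colon, and curcumin has been studied in it as an agent against inflammation and tumors.

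The curcumin libraries held 26924351 and 26069698 calls, the AOM/DSS libraries 30727568 and 28766117, and the control libraries 30168228 and 24682973. Over the tested autosomal regions their median calls per region were 104 and 100 in the curcumin libraries, 119 and 110 in AOM/DSS and 116 and 96 in control, with mean levels from 40.3% to 41.5%. A further 28804 autosomal regions lacked a value in at least 1 library and were not judged.

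How many regions the rule picks depends on which 2 libraries are set against the rest. The curcumin pair had 278 regions above, ninth among the 15 pairs, and the other 14 pairs had 163 to 579 with a median of 326. It had 264 regions below, eleventh among the 15, and the other 14 pairs had 208 to 922 with a median of 327.5. Both directions added, 13 of the other 14 pairs had more than its 542 regions, and 1, AOM/DSS replicate 0 with control replicate 1, had fewer, at 523. Over the 12 pairs that join libraries of different groups the sum ran from 523 to 811, and 11 of the 12 exceeded that of the curcumin pair.

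The other groups' own pairs stood out in 1 direction each. The AOM/DSS pair had 922 regions below the other 4, the most of any pair, and 269 above. The control pair had 579 regions above the other 4, the most of any pair, and 247 below. The curcumin pair was nearly even between its directions. The mean calls of its 2 libraries had a median over regions of 102.5, against 114.5 in the AOM/DSS pair and 106 in the control pair. Pairs of different groups ran from 98.5 to 117.5.

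**Figure D1:**
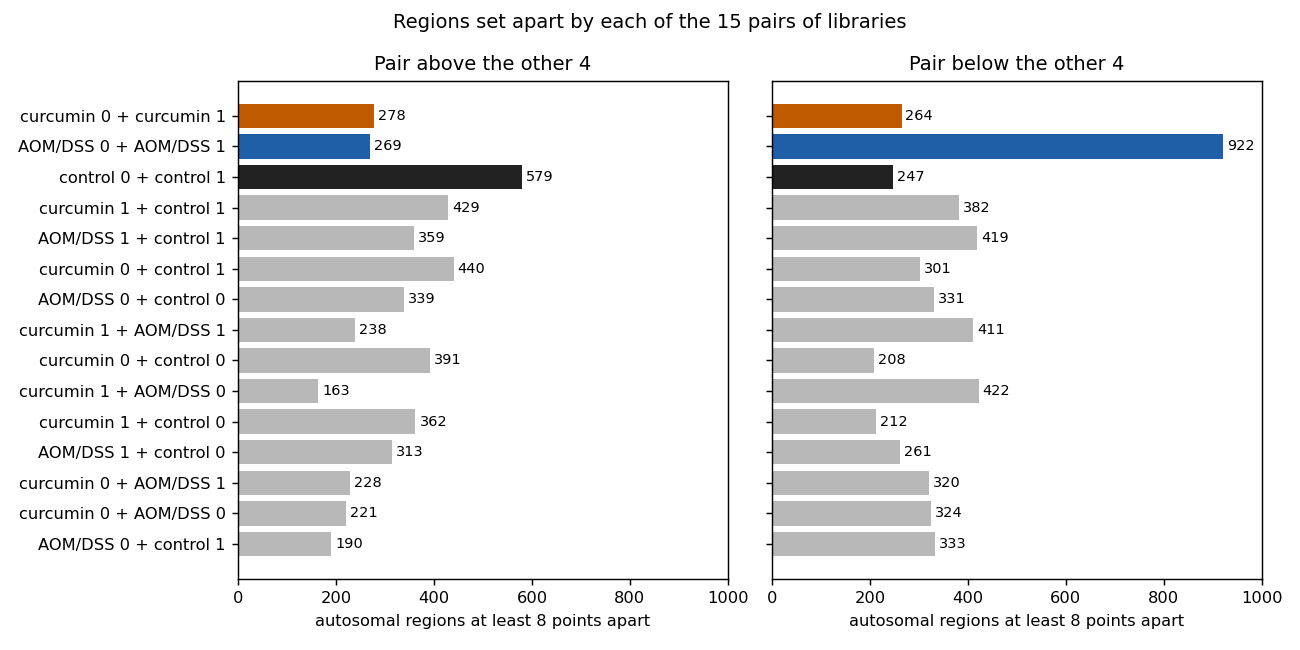
Number of autosomal regions (x axes) in which each pair of libraries lay at least 8 points above (left) or below (right) the highest or lowest of the other 4. The top 3 bars are the pairs of 1 group, curcumin, AOM/DSS and control, and grey bars pair libraries of different groups in order of their sum. The curcumin pair, at 278 and 264, sits within the range of the other bars on both sides.

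Among the regions where the curcumin libraries lay above, the widest gap was on chromosome 12 from 110697955 to 110698075 (build mm9, as for all positions), a stretch of 120 bases with 14 CpGs. It stood at 77.4% and 78.9% in the curcumin libraries, 49.4% and 48.3% in AOM/DSS, and 40.4% and 46.8% in control. The lower curcumin library thus lay 27.9 points over the highest of the other 4. The library values rested on 53 to 89 calls, and the 95% Wilson interval of the lower curcumin library, 64.5 to 86.5%, lay clear of that of the highest other library, 39.0 to 59.8%. The next region, 142 bases away with 15 CpGs, averaged 79.1% in curcumin libraries, 67.4% in AOM/DSS and 78.3% in controls, and there the libraries overlapped.

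The best-covered region above was on chromosome 9 from 96770897 to 96771052, with 12 CpGs and 357 to 426 calls per library. It stood at 62.8% and 60.8% in the curcumin libraries, 44.2% and 43.1% in AOM/DSS and 48.1% and 44.1% in control. The means were 61.8% ± 1.39 (SD, n = 2) in curcumin libraries, 43.7% ± 0.737 in AOM/DSS and 46.1% ± 2.80 in controls, and the gap was 12.7 points. The interval of the lower curcumin library, 56.0 to 65.5%, again lay clear of the highest other interval, 43.0 to 53.2%. Its neighbour at 183 bases, with 9 CpGs, was nearly unmethylated at 2.80% in curcumin libraries, 4.65% in AOM/DSS and 4.29% in controls. These 2 regions, on chromosomes 12 and 9, were the ones among all 542 whose intervals in both curcumin libraries lay clear of those of the other 4. Such intervals cover counting error only, and they treat calls from 1 read as separate.

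A low region lay on chromosome 13 from 98160735 to 98160858, with 5 CpGs and 46 to 66 calls. The curcumin libraries stood at 34.5% and 34.8%, the AOM/DSS libraries at 6.06% and 3.70%, and the control libraries at 7.84% and 13.3%. It was 1 of 10 regions above where the other 4 libraries averaged under 10%. Its neighbour at 112 bases averaged 14.8% in curcumin libraries, 10.6% in AOM/DSS and 12.8% in controls, with overlap.

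A region with 13 CpGs lay on chromosome 2 from 174111513 to 174111652. It stood at 64.3% and 48.7% in the curcumin libraries, 19.4% and 21.4% in AOM/DSS and 30.8% and 25% in control, on 39 to 78 calls. The curcumin replicates were far apart here, with an SD of 11 points around a mean of 56.5%. It had 3 neighbours within 1000 bases, and libraries overlapped in all 3. The nearest, at 314 bases, averaged 43.3% in curcumin libraries, 43.2% in AOM/DSS and 50.1% in controls, so its curcumin mean was not the higher. The other two had the higher mean in curcumin libraries, as the region itself did. The neighbour at 744 bases averaged 38.0% in curcumin libraries, 22.9% in AOM/DSS and 27.8% in controls, and that at 1000 bases 28.4% in curcumin libraries, 17.0% in AOM/DSS and 25.2% in controls.

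The region above with the most CpGs, 16, lay on chromosome 5 from 150090878 to 150091257 and read 70.1% and 63.4% in curcumin libraries, 46.0% and 50.8% in AOM/DSS and 54% and 43.4% in controls. Chromosome 14 held a region from 68740883 to 68741085, with 10 CpGs, that read 62.7% and 48.5% in curcumin libraries, 30.8% and 22.0% in AOM/DSS and 33.9% and 29.6% in controls, on 98 to 201 calls. It is named here after its values were seen. The curcumin SD was 4.69 points in the chromosome 5 region, whose gap was 9.45 points (14.2 with calls thinned to the region's shallowest library), and 10.1 points in the chromosome 14 region, whose gap was 14.6 points.

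The remaining 9 of the 12 widest gaps above ran from 17.2 to 21.3 points and lay on chromosomes 2, 4, 5, 8, 12, 15 and 19. They had 3 to 6 CpGs, and the shallowest library of each held between 20 and 36 calls. On chromosome 5 from 122510291 to 122510366 the curcumin libraries stood at 73.5% and 72.4%, AOM/DSS at 51.1% and 41.4% and control at 34% and 40%. At 29 calls the interval of the lower curcumin library reached down to 54.3%, while that of the highest other library reached up to 65.0%, so the intervals overlapped. The calls of every library were thinned to those of the region's shallowest library, in 1 random draw. Its gap of 21.3 points then fell to 8. That of the region on chromosome 15 from 12798681 to 12798762 fell to 12.5, against 18.95 as deposited. The region from 122509080 to 122509406, 885 bases away, went the other way, averaging 32.3% in curcumin libraries against 38.8% in AOM/DSS and 41.2% in controls, with both curcumin libraries below the other 4 by 1.12 points.

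Among the regions below, the widest gap was on chromosome 15 from 58295115 to 58295234, with 3 CpGs. The curcumin libraries stood at 42.1% and 41.3%, AOM/DSS at 68.6% and 73.3% and control at 62.9% and 65.2%, on 45 to 62 calls. The higher curcumin library lay 20.8 points under the lowest of the other 4. Its interval, 30.2 to 55.0%, overlapped that of the nearest control library, 50.5 to 73.8%, and 0 of the 264 regions below had intervals clear of all others.

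The region below with the most CpGs, 23, and the most calls, 271 to 433, lay on chromosome 11 from 103815454 to 103815853. It read 32.4% and 33.7% in curcumin libraries, 44.3% and 46.9% in AOM/DSS and 45.1% and 43.5% in controls. The means were 33.0% ± 0.913 (SD, n = 2) in curcumin libraries, 45.6% ± 1.84 in AOM/DSS and 44.3% ± 1.13 in controls, and the gap was 9.85 points. It borders an unmethylated stretch: the neighbour at 98 bases, with 36 CpGs, averaged 0.932% in curcumin libraries, 0.654% in AOM/DSS and 0.914% in controls.

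A region of chromosome 3 from 96145231 to 96145320 read 19.3% and 15.7% in curcumin libraries, 34.9% and 34.8% in AOM/DSS and 38.1% and 38.5% in controls. Another of chromosome 6 from 125312122 to 125312182 read 11.5% and 12.5% in curcumin libraries, 35.1% and 30.8% in AOM/DSS and 29% and 36.7% in controls. Both hold 3 CpGs, and their curcumin replicates lay close together. The nearest neighbour of the chromosome 6 region, at 115 bases with 29 CpGs, was far more methylated and overlapped, averaging 80.03% in curcumin libraries, 83.8% in AOM/DSS and 76.9% in controls. The region of chromosome 11 from 20309269 to 20309365 had the largest mean difference of those below, -34.3 points, with curcumin replicates far apart at 25% and 46.7%, against 65.7% and 64.5% in AOM/DSS and 78.8% and 71.4% in controls. Its gap was 17.8 points, and 10.7 after thinning.

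The other 8 of the 12 widest gaps below ran from 15.3 to 19.9 points on chromosomes 5, 8, 13, 14, 15, 16 and 19, with 3 to 6 CpGs. Thinning lowered 3 of these gaps by more than 1.5 times. The gap on chromosome 15 from 84317887 to 84318090 was 9.68 points after thinning and 19.9 before, that on chromosome 16 from 90400452 to 90400509 was 6.90 after and 17.3 before, and that on chromosome 14 from 26316585 to 26316658 was 3.57 after and 16.5 before. The one on chromosome 5 from 102251602 to 102251690 averaged 47.9% in curcumin libraries, 74.8% in AOM/DSS and 75.4% in controls. A neighbour from 102250458 to 102250642, 960 bases away, averaged 40.8% in curcumin libraries, 52.3% in AOM/DSS and 64.8% in controls, and there too both curcumin libraries lay below the other 4, by 4.70 points. The neighbour on the other side, at 819 bases, averaged 87.0% in curcumin libraries, 85.9% in AOM/DSS and 87.3% in controls, and libraries overlapped. The nearest neighbour of the region on chromosome 14 from 57397836 to 57397944, 116 bases away, lay near 0 and the opposite way, at 2.78% in curcumin libraries, 0.872% in AOM/DSS and 0.733% in controls.

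**Figure D2:**
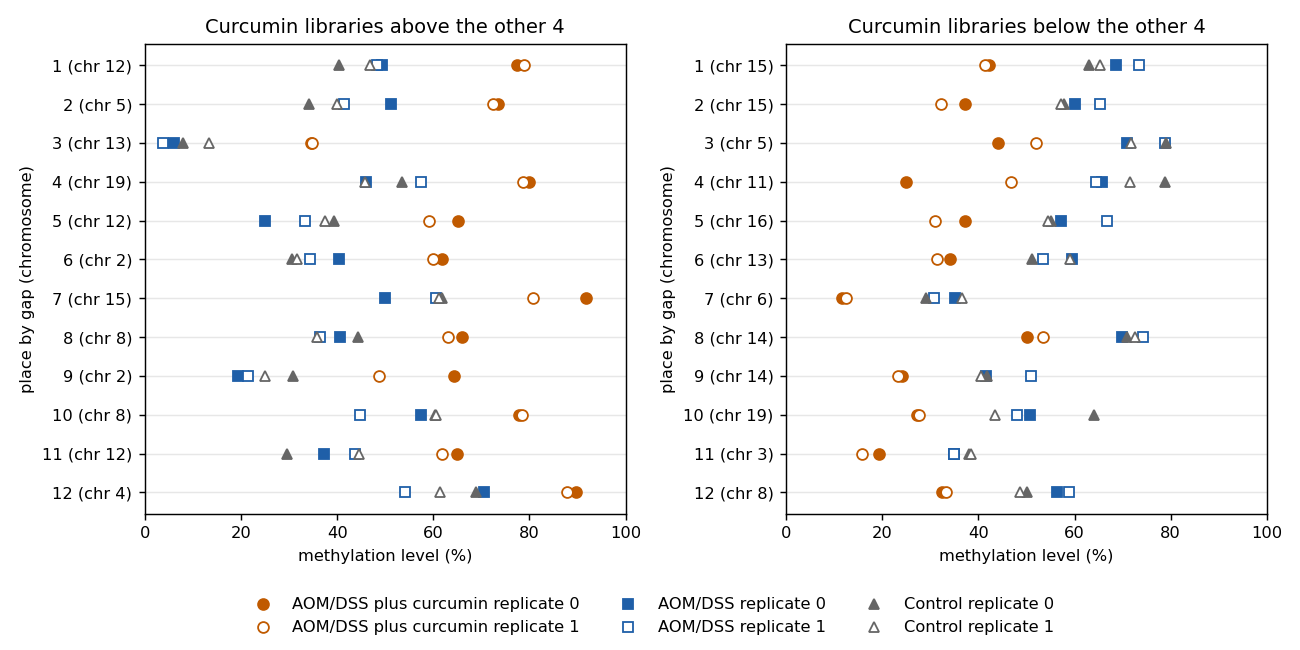
Methylation level (x axis, %) in each of the 6 libraries for the 12 regions with the widest gap above (left) and below (right), 1 row per region with its chromosome, filled marks for replicate 0 and open marks for replicate 1. The orange curcumin marks stand clear of the blue AOM/DSS and grey control marks in every row, which is how the regions were chosen.

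The regions just inside and just outside the limit of 8 points differed little. Above, those just inside lay on chromosomes 4 (from 153243450), 7 (from 9838111) and 17 (from 90855968) with gaps of 8, 8.03 and 8.04 points, and those just outside on chromosomes 4 (from 149386039), 15 (from 57528488) and 8 (from 96015669) with 7.97, 7.98 and 7.999 points. Below, those just inside lay on chromosomes 1 (from 74325927), 18 (from 13107201) and 5 (from 118768514) with 8.02, 8.03 and 8.04 points, and those just outside, all on chromosome 10 (from 82417641, 77341776 and 44123974), had 7.95, 7.96 and 7.96 points.

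Over the 278 regions above, the curcumin mean lay 9.05 to 34 points over the mean of the other 4, with a median of 16.9 points. The 264 regions below lay -34.3 to -8.94 points from it, with a median of -15.8. A gap of at least 15 points was found in 21 regions above and 16 below. The curcumin replicates differed by a median of 2.94 points in the regions above and 2.69 in those below, against 2.81 over all autosomal regions. The other 4 libraries spanned a median of 9.92 points above and 8.18 below, against 7.37 over all.

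The regions set apart had shallow coverage and few CpGs. The shallowest library held a median of 37 calls in the regions above and 38 in those below, against 82 over all autosomal regions. Of the regions whose shallowest library held 20 to 29 calls, 0.523% had the curcumin pair above and 0.490% below, while of those with 200 calls or more 0.00366% (1 region) and 0.00731% (2 regions) did. Members held a median of 4 CpGs in both directions, against 7 over all. At most 4 CpGs were held by 154 of 278 above and 155 of 264 below. Of all tested regions, 17.1% had 3 CpGs and 13.8% had 4. In the class of 11 or more CpGs, which holds 30.4% of the tested regions, 10 regions lay above (0.0185% of the class) and 11 below (0.0204%). The most CpGs in a member were 16 above and 23 below, against 77 over all tested regions. The 95% intervals of single libraries had a median width of 23.4 points in the regions above and 22.1 in those below, which is wider than the rule's 8 points. The other 14 pairs had 163 to 579 regions above, but 10 to 74 among the 74092 regions with at least 100 calls per library. Below, they had 208 to 922, and 17 to 153 at that depth. The curcumin pair had 14 above at that depth, place 13 among the 15 pairs, and 13 below, place 15. The counts of the other pairs thus fell at that depth too, but below, the curcumin pair then had the fewest. The part of counting error in the members was not tested.

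By level, most members were intermediate. At a mean level of 30 to 50% in the other 4 libraries, 79 regions lay above (0.482% of that class) and 61 below (0.372%), and at 50 to 70%, 94 lay above (0.462%) and 83 below (0.408%). At 70 to 90% there were 50 above (0.142%) and 74 below (0.210%). Under 10%, 10 of 63989 regions lay above, and at 90% or more, 22 of 20274 lay below. A region under 8% cannot lie 8 points lower, and the top of the scale limits regions above likewise, so the rule itself shapes these ends.

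**Figure D3:**
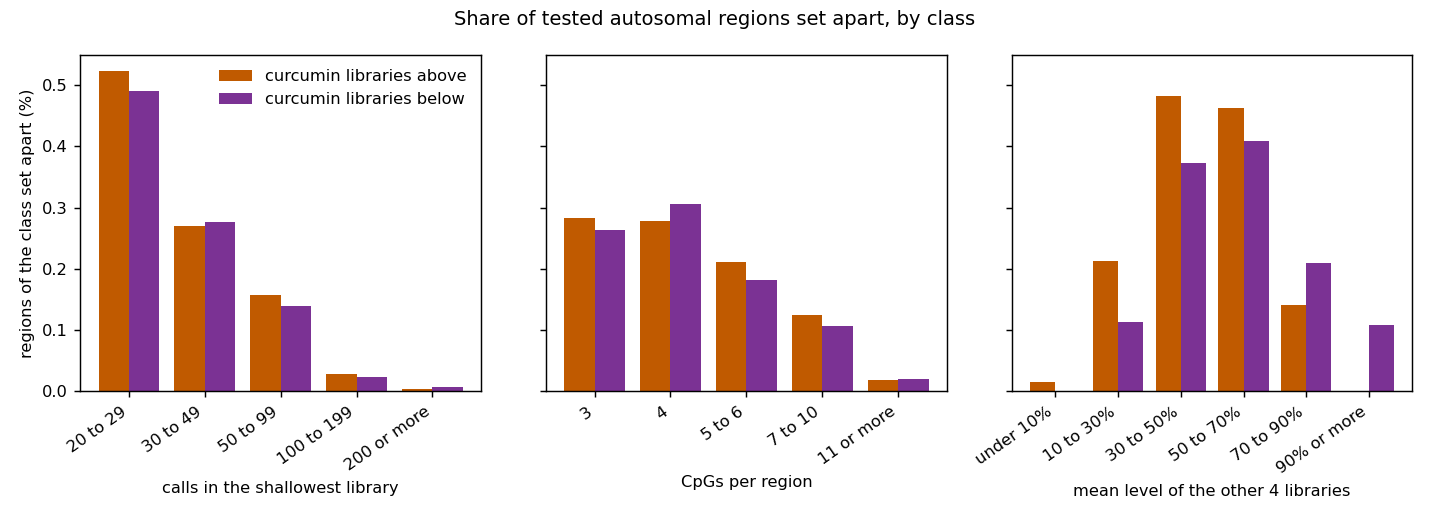
Share of tested autosomal regions (y axis, %) with both curcumin libraries at least 8 points above (orange) or below (purple) the other 4, by calls in the shallowest library, CpGs per region and mean level of the other 4 libraries. The share declines with calls, to 0.00366% and 0.00731% at 200 or more, and is highest between 30 and 70% for both directions.

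The members were scattered. They lay on all 19 autosomes, with 3.05 members per 1000 tested regions over all, 4.50 on chromosome 12 and 1.26 on chromosome 18, where 7 of 5538 regions were members. Members of the same direction were never within 1000 bases of each other: the closest were 81479 bases apart above and 18109 below.

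Neighbouring regions took no part in choosing the members. Within 1000 bases, 172 of the regions above had 307 tested neighbours, and 18 of these (5.86%) had both curcumin libraries above the other 4 by any distance, against 6.07% of all autosomal regions. Both lay below in 12 (3.91%), against 6.02% of all. The curcumin mean was the higher in 159 of the 307 (51.8%), with a median difference of 0.101 points. Of the 313 neighbours of 172 regions below, 13 (4.15%) had both curcumin libraries below the other 4 and 18 (5.75%) had both above, and the median difference was -0.0674 points.

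Many neighbours are unmethylated or fully methylated and have little room to move, so those at 10 to 90% in the other 4 libraries were also counted, a split chosen after the data were seen. Beside the regions above, 101 of 181 such neighbours (55.8%) were higher with curcumin, against 51.9% of all regions of that level, and the median difference was 0.916 points, against 0.229 points. Both curcumin libraries lay above the other 4 in 11 of them (6.08%), against 6.44%. Beside the regions below, 96 of 201 (47.8%) were lower with curcumin, against 48.1%, with a median difference of 0.200 points. Neighbours come from the same 6 libraries and can share reads with a member, so they are not independent samples.

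**Figure D4:**
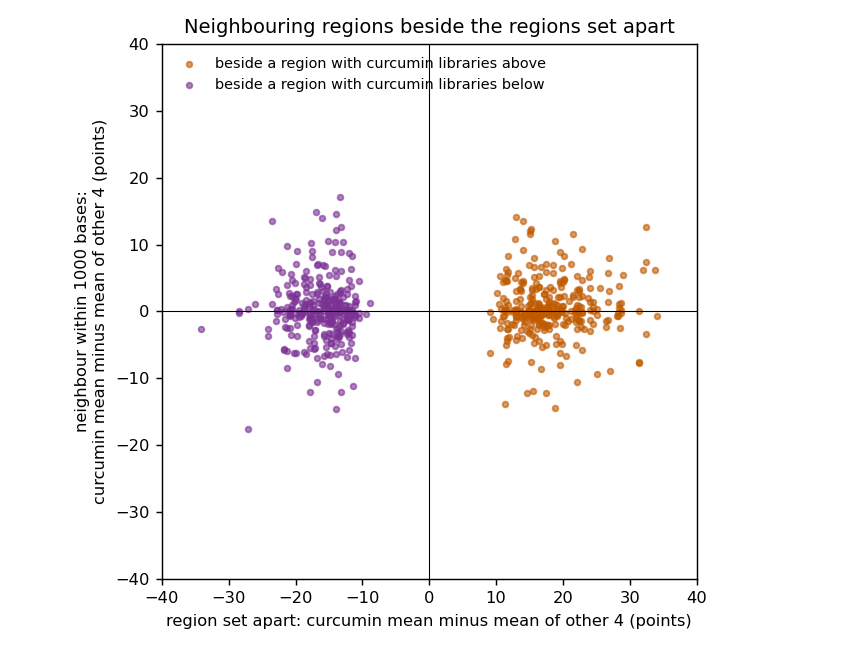
Curcumin mean minus the mean of the other 4 libraries, in points, for each member (x axis) and each tested region within 1000 bases that is not a member (y axis), 1 point per neighbour, 307 beside regions above (orange) and 313 beside regions below (purple). The neighbours centre on 0 in both clouds, with medians of 0.101 and -0.0674 points.

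Whether the members also differ between AOM/DSS and control is a comparison whose direction the rule does not set, since it treats these 4 libraries alike. In the regions above, the AOM/DSS mean was lower than the control mean in 172 and higher in 106 (61.9% lower), with a median of -1.23 points, against 54.4% lower and -0.265 points over all autosomal regions. Both AOM/DSS libraries lay below both controls in 72 of them (25.9%) and above both in 41 (14.7%), against 20.9% and 14.9% of all regions. In the regions below, 144 were lower in AOM/DSS and 120 higher, with a median of -0.622 points. There both AOM/DSS libraries lay below both controls in 51 (19.3%) and above both in 42 (15.9%). All regions are not matched to the members by level or calls. Under 10% in the other 4 libraries lay 36.1% of all regions, but 3.60% of the regions above. The shares were not compared within a level class, so no lean particular to the members is read from them.

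Methylated and unmethylated counts were compared with edgeR's quasi-likelihood test, with Benjamini-Hochberg adjustment over all 179922 regions. Between AOM/DSS and control, 7 regions (0.00389%) passed an adjusted p of 0.05 with a difference of 8 points or more, 2 higher (0.00111%) and 5 lower (0.00278%) in AOM/DSS, and 0 of the 542 members were among them. At an unadjusted p of 0.05 with the same minimum difference, 1 of the 278 regions above was higher in AOM/DSS and 1 was lower, and 0 of the 264 below were either. Of all regions 3.4% were past that threshold, 0.958% higher and 2.45% lower. The rule used the levels of these 4 libraries too. In their shallowest library members held a median of 37 calls above and 38 below, against 82 over all. Nothing is read from the members' lower share, and its cause was not tested. In the quasi-binomial model, an alternative with another estimate of the spread, 376 regions (0.209%) passed after adjustment and again 0 members. With 1 library left out edgeR called 1 to 8 regions, the fewest without curcumin replicate 0, curcumin replicate 1 or AOM/DSS replicate 1.

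For the contrasts that the rule used, the same tests are given without reading anything from the members. Between curcumin and AOM/DSS, between curcumin and control, and between curcumin and the mean of both, edgeR called 0 of 179922 regions after adjustment (0%), and limma called 0 in each. Before adjustment edgeR put 4506 regions (2.5%), 3242 (1.8%) and 2703 (1.5%) past 0.05 with 8 points or more. Against AOM/DSS these held 170 of the 278 regions above, where 1.55% of all regions were higher, and 117 of the 264 below, where 0.956% were lower. Against control they held 132 of the regions above, where 0.704% of all were higher, and 127 of those below, where 1.1% were lower. Against the mean of both they held 223 of the regions above, where 0.798% of all were higher, and 189 of those below, where 0.705% were lower.

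The quasi-binomial model called 110 regions (0.0611%) between curcumin and AOM/DSS, of which 3 were regions above and 1 below. It called 34 (0.0189%) between curcumin and control, of which 1 was a region above. Against the mean of both it called 28 (0.0156%), of which 5 were regions above and 0 below. The rule chose the members by these same levels, so their calls in these contrasts are no support for them. The 5 were those described on chromosomes 2, 9, 13 and 14 and a region of chromosome 18 from 74974776 to 74974927. The chromosome 18 region has 8 CpGs and is named here after its values were seen. It read 22.6% and 22.2% in curcumin libraries, 8% and 4.26% in AOM/DSS and 7.34% and 9.09% in controls, on 99 to 177 calls.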

How the data were processed

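The deposited files give counts per region and library: the number of CpGs, of methylation calls and of methylated calls. Per the labels' protocol, libraries were captured with Agilent's SureSelectXT Mouse Methyl-Seq kit. Bismark 0.15.0, ChIPseeker 1.10.3, R 3.4.0 and build mm9 are named in the submitters' processing notes; how regions were drawn was not given in the sources used here. Deposited values rest on at least 20 calls. No mm9 genome or annotation was used, so regions have no gene names or sequences, and positions are as in the files.

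Levels, gaps and counts came from Python 3.11.15 (pandas 2.3.3, numpy 2.4.6, scipy 1.17.1, matplotlib 3.10.9). Fits used edgeR 4.0.16 and limma 3.58.1 in R 4.3.3, on all 6 libraries, and were tested on simulated data. The edgeR model had a coefficient per library for coverage and per group for methylation. The limma model had a mean per group of log2 ratios of methylated to unmethylated calls, without weights for coverage. The quasi-binomial model moderates each region's spread along a trend with depth. P-values measure the spread between these libraries only, which may be technical. Named regions are, per direction, the 12 widest gaps, the most CpGs and the most calls; others are marked. Members, lists and tests were chosen with earlier results of these data known. The gene and marker lists were not tested.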

Additional observations from a re-analysis of the deposited data

How the results depend on the processing

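The counts follow the limits set. Regions above and below numbered 950 and 851 at 5 points, 141 and 113 at 10, 21 and 16 at 15, 98 and 88 with at least 50 calls in each library, 14 and 13 with at least 100, 71 and 73 with at least 6 CpGs, and 7 and 8 on chromosome X. Calls were also thinned to the shallowest library of each region in 1 random draw, which adds noise to every pair. Regions above and below then numbered 404 and 408, and 151 and 154 of the members still met the rule. With levels centred per library within each of 10 classes of mean level, there were 287 above and 278 below. On chromosome X the curcumin pair took place 6 above and place 2 below among the 15, with 2 to 14 and 2 to 9 regions in the other pairs. On autosomes its place above was 8 at 15 points, 11 with at least 6 CpGs and 7 with centring. It was 10 and 13 with at least 50 and 100 calls. Its place below was 13 at 10 and at 15 points, 13 with at least 6 CpGs, 12 after thinning and 14 with centring. With at least 50 and 100 calls the place below was 12 and 15. Leaving out 1 library eases the rule by construction: without curcumin replicate 0 there were 2280 regions above and 2547 below, without curcumin replicate 1 2318 and 2174, without AOM/DSS replicate 0 523 and 607, without AOM/DSS replicate 1 533 and 603, without control replicate 0 698 and 529, and without control replicate 1 701 and 593. Of the 27 named regions, 25 kept a gap of at least 8 points after this draw and 0 turned sign. The draw took from the same calls that chose these regions, most of them for their wide gaps, so it is no independent support. Gaps shrank by more than 1.5 times in the regions named for it on chromosomes 5, 11, 14, 15 and 16. Some gaps grew instead, such as that on chromosome 15 from 58295115, at 20.8 points before and 24.4 after. The spread over further draws was not tested.

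The quasi-binomial model called 110 regions between curcumin and AOM/DSS, 34 between curcumin and control, 28 between curcumin and the mean of both and 376 between AOM/DSS and control, where edgeR called 0, 0, 0 and 7; the cause was not tested. Between AOM/DSS and control, limma called 0 (7960 past an unadjusted p of 0.05 with 8 points or more), edgeR 1 with at least 50 calls and 2 with at least 6 CpGs. Without 1 library edgeR called 0 to 1 between curcumin and AOM/DSS (1 without either control replicate), 0 to 1 between curcumin and control (1 without control replicate 0), and 1 to 8 between AOM/DSS and control: 1 without curcumin replicate 0, curcumin replicate 1 or AOM/DSS replicate 1, 3 without AOM/DSS replicate 0, 8 without control replicate 0 and 2 without control replicate 1. With 6 CpGs or more it called 1 between curcumin and AOM/DSS. The labels do not say whether same-numbered replicates share more than a number. Their deviations from the group means correlated by 0.00790 to 0.0557 over regions, the highest between AOM/DSS and control. Counting error enters these deviations, so such values cannot decide it, and pairing was not tested. With the replicate number as a block, edgeR called 1 region between curcumin and AOM/DSS and 41 between AOM/DSS and control. Between AOM/DSS and control the named regions did not pass under 7 alternatives, with a smallest adjusted p of 0.809 in edgeR, and the sign of the difference turned in 23 of 189 cases.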
